A study of Homo sapiens with 6 samples.

Results

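Aminoacyl-tRNA synthetases are the enzymes that load each tRNA with its amino acid. Their genes were taken by symbol from a table of 47577 loci, 26793 of them with a gene symbol, and 35 loci matched: 19 genes of the cytosolic enzymes and 16 of the mitochondrial enzymes, whose symbols end in 2. GARS1 and KARS1, whose genes serve both compartments, were counted with the cytosolic enzymes. MARS1 and MARS2, the methionine enzymes, were not analysed here. The values come from polyA plus RNA-seq of OVCAR3 cells, a cell line established from high-grade serous ovarian carcinoma, and they answer how the RNA of these genes responds when CDK12 and CDK13, kinases of RNA polymerase II elongation, are inhibited. The 2 groups were cells given DMSO, the solvent, and cells given 200 nM THZ531, a covalent inhibitor of both kinases, for 6 h, with 3 libraries each described in the labels as biological repeats. The titles name THZ531 while the treatment text of the labels names the related compound THZ1 at this dose, and the samples were grouped by their titles. All libraries are from this 1 cell line, at 1 dose and 1 time.

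Each synthetase recognises an amino acid and its tRNAs, activates the amino acid with ATP and joins it to the tRNA, so that the ribosome receives the residue that the codon calls for. In human cells most amino acids have a pair of nuclear genes, one for the enzyme of the cytosol and one for the enzyme of the mitochondrial matrix, and several cytosolic enzymes sit together on scaffold proteins in the multisynthetase complex. The cytosolic enzymes feed bulk protein synthesis, while the mitochondrial ones serve the translation of the few respiratory chain proteins encoded by mitochondrial DNA.

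The deposited values are reads per gene divided by a size factor for each library, called normalized reads below. Gene reads numbered 69769011, 60146046 and 70986130 for the DMSO cultures, in the order of their replicate numbers, and 53054048, 57953296 and 57935278 for the THZ531 cultures. Of the 35 genes, 34 reached at least 10 normalized reads in at least 3 libraries and were tested. FARSB, the gene of the beta subunit of cytosolic phenylalanyl-tRNA synthetase, was listed at 0 in all 6 libraries, which is not read here as absence of its transcript. OVCAR3 markers were present in the DMSO libraries, with a mean of 11272 normalized reads for PAX8, 130310 for KRT7 and 650.3 for WT1, although PAX8 fell to a mean of 1241 with THZ531. Of 6 markers of leukocytes, endothelium and fibroblasts, CD3E was at 0 in every library and LUM had a DMSO mean of 1.15. Their summed level was 1156, 1121 and 1118 in DMSO and 2191, 2485 and 2315 in THZ531, most of it COL1A1, whose mean went from 995.5 to 2190. The part of these transcripts in the results below was not tested. In bulk RNA, fewer cells of a kind and less RNA per cell cannot be told apart.

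After THZ531, 6 of the 34 tested synthetase genes were regulated, which means that they passed a 1.5-fold change with a p, before adjustment, no higher than 0.05 by limma on the log2(normalized reads + 1) scale. YARS2 and VARS2, both mitochondrial, rose, and FARSA, AARS2, PARS2 and EARS2 fell, though VARS2 lost its call when libraries were scaled to the same total and both increases did when they were scaled to RPL34. Across all 17568 loci tested, 15.7% rose and 23.9% fell by this rule (39.5% in either direction). By limma's Benjamini-Hochberg adjusted p, with 0.05 as the limit and no limit on the fold, 11 of the 34 genes were higher and 15 were lower, against 34.6% and 34.1% of all loci (68.6% in either direction). The libraries of the treatments did not overlap in 12 genes that were higher and 17 that were lower with THZ531, against 36% and 35.7% of all loci (71.7% together). The median log2 fold change of the 34 genes was -0.06, beside -0.01 for all loci. The changes ran from -2.06 to 0.89. Scaling the libraries to the same total moves THZ531 relative to DMSO by -0.24 in log2 units, and scaling to the ribosomal protein gene RPL34 moves it by -0.49. Under these, 1 gene rose and 9 fell, or 0 rose and 16 fell, against 9.38% and 32% of all loci with the same total and 6.14% and 42.8% with RPL34.

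**Figure D1:**
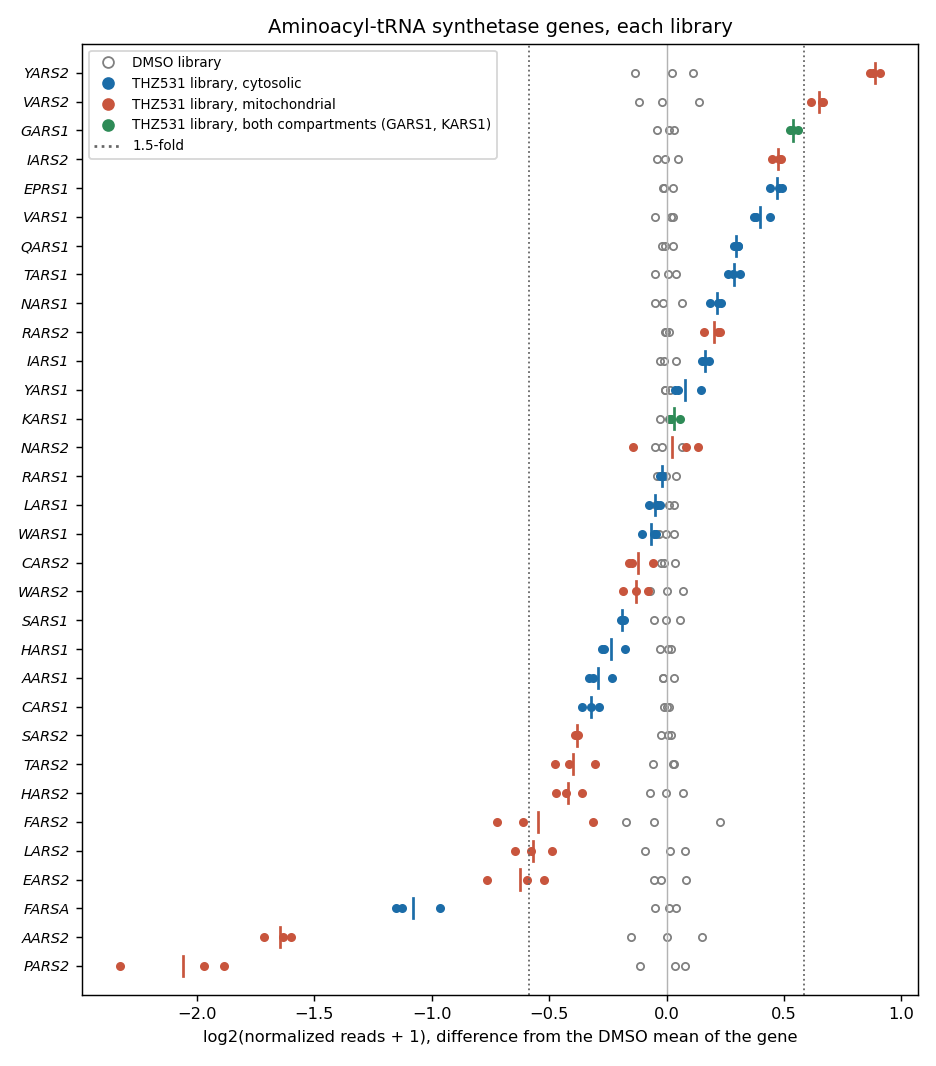
Each row is 1 synthetase gene, 32 of the 34 tested, and each point 1 library, as the difference of log2(normalized reads + 1) from the mean of the 3 DMSO libraries (open circles, DMSO; filled circles, THZ531; vertical tick, THZ531 mean; dotted lines, a fold change of 1.5). The mitochondrial genes hold both ends of the order, from YARS2 at 0.89 to PARS2 at -2.06, with the scaling as deposited.

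Few cytosolic enzymes changed by 1.5-fold as deposited. Among the 18 tested, 0 rose and 1 fell by at least 1.5-fold, and at the adjusted p of limma 7 were higher, 5 were lower and 6 did not pass, against 15.7% and 23.9% of all loci by the fold and 34.6% and 34.1% by the adjusted p. With the same total 3 were higher and 11 lower at the adjusted p, against 3852 and 8196 of the 17568 loci. With RPL34 0 were higher and 15 lower, against 1691 and 10232 loci. By 1.5-fold, 1 fell with the same total and 5 with RPL34, against 32% and 42.8% of all loci. The cytosolic median log2 fold change was 0.05. It turned to -0.20 with the same total and -0.45 with RPL34, beside -0.25 and -0.50 for all loci. The exception was FARSA, the alpha subunit of the cytosolic phenylalanyl-tRNA synthetase (GSHG0022424, hg38, chromosome 19, 12922479 to 12933717, minus strand). It had 8969, 9525 and 9324 normalized reads in DMSO and 4249, 4168 and 4751 in THZ531. All 3 treated libraries were below all controls, a log2 fold change of -1.08 with an SE of 0.05 and an adjusted p of 2.2e-11 in limma. An antisense locus, FARSA-AS1, covers 24.7% of the FARSA span and was itself at 0 in every library.

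The 7 analysed enzymes of the multisynthetase complex stayed in a narrow range, from -0.05 for LARS1 to 0.47 for EPRS1. Of these 7, 0 were regulated, against 39.5% of all loci. At the adjusted p of limma 3 were higher and 0 lower, against 34.6% and 34.1% of all loci. With the same total the counts were 1 and 4, against 3852 and 8196 of the 17568 loci. With RPL34 they were 0 and 6, against 1691 and 10232 loci. EPRS1 encodes the bifunctional enzyme for glutamate and proline, and its values were 9967, 9711 and 9700 in DMSO and 13782, 13634 and 13298 in THZ531. The treated libraries were all higher, with a log2 fold change of 0.47, an SE of 0.03 and an adjusted p of 5.7e-09 in limma, which turned to -0.02 with RPL34. QARS1, for glutamine, and IARS1, for isoleucine, were also higher at the adjusted p, by 0.30 and 0.16, and both were below 0 with RPL34, at -0.20 and -0.33. KARS1, RARS1 and LARS1, for lysine, arginine and leucine, had log2 fold changes of 0.03, -0.02 and -0.05 and did not pass.

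Among the cytosolic enzymes outside the complex, GARS1, the glycine enzyme, had the largest increase, just under the 1.5-fold threshold. It had 7028, 6790 and 7143 normalized reads in DMSO and 10297, 10044 and 10138 in THZ531. No library overlapped between the groups, and the log2 fold change was 0.54 with an SE of 0.04 (limma, adjusted p = 2.3e-09). VARS1, TARS1 and NARS1, for valine, threonine and asparagine, were higher by 0.40, 0.29 and 0.21, and with RPL34 these became -0.10, -0.21 and -0.28. SARS1, HARS1, AARS1 and CARS1, for serine, histidine, alanine and cysteine, were lower by the adjusted p of limma, with log2 fold changes of -0.19, -0.24, -0.29 and -0.32. YARS1 and WARS1, for tyrosine and tryptophan, had log2 fold changes of 0.08 and -0.07 and did not pass.

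The mitochondrial enzymes spread further than the cytosolic ones. Of 16 genes, 2 rose and 3 fell by at least 1.5-fold, and at the adjusted p of limma 4 were higher and 10 were lower, against 15.7% and 23.9% of all loci by the fold and 34.6% and 34.1% by the adjusted p. By fold, 1 rose and 8 fell with the same total, against 9.38% and 32% of all loci. With RPL34 0 rose and 11 fell, against 6.14% and 42.8%. The mitochondrial median log2 fold change was -0.33, with 11 of 16 genes below 0, moving to -0.57 for equal totals and -0.82 for RPL34. The SD of the changes was 0.75 over the mitochondrial genes and 0.37 over the cytosolic ones. Both were under the SD of 1.08 over all loci tested and 0.90 over those with a symbol. No test of the difference between the mitochondrial and cytosolic sets was made, because genes are not replicates.

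PARS2, the prolyl-tRNA synthetase of mitochondria, had the largest decrease of all members (GSHG0002490, chromosome 1, 54756898 to 54764523, minus strand). Its normalized reads were 657.3, 638.4 and 576.9 in DMSO and 123.4, 168.2 and 158.1 in THZ531. The groups were far apart, with a log2 fold change of -2.06, an SE of 0.13 and an adjusted p of 1.1e-09 in limma, at percentile 3.89 of the changes of all loci tested. PARS2 is also the shortest of the 35 genes, at 7.626 kb and 2 exons. AARS2, the alanine enzyme of mitochondria (GSHG0038033, chromosome 6, 44298731 to 44313347, minus strand), had 912.2, 1012 and 819.4 normalized reads in DMSO. In THZ531 it had 277.1, 293.3 and 300.3, so that each treated library lay below each control, and the log2 fold change was -1.65 with an SE of 0.10 (limma, adjusted p = 4.3e-10). Its span lies to 77.6% within the locus of TMEM151B, which had means of 10.9 and 3.87 normalized reads and was not tested.

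EARS2, the glutamate enzyme of mitochondria (GSHG0017076, chromosome 16, 23520754 to 23557375, minus strand), had 1158, 1134 and 1246 normalized reads in DMSO and 821.2, 693.4 and 780.4 in THZ531. The groups did not overlap, and the log2 fold change was -0.63 with an SE of 0.08 (limma, adjusted p = 2.3e-06). Without THZ531 replicate 2 it was -0.56, under the 1.5-fold threshold. LARS2 and FARS2, for leucine and phenylalanine, lay just outside the threshold. LARS2 had 1701, 1631 and 1512 normalized reads in DMSO and 1030, 1082 and 1149 in THZ531 (log2 fold change -0.57, SE 0.07). FARS2, the longest member at 510.6 kb, had 224.7, 206.9 and 272.9 in DMSO and 187.7, 141 and 152.4 in THZ531 (log2 fold change -0.55, SE 0.16). In both genes the treated libraries were all lower. LARS2 passed the fold change in edgeR, with upper-quartile scaling and without DMSO replicate 3 or THZ531 replicate 3, at -0.59, -0.59, -0.62 and -0.61, and with the same total and RPL34, at -0.81 and -1.06. FARS2 passed it without DMSO replicate 2 or THZ531 replicate 1, at -0.63 and -0.67, and with the same total and RPL34, at -0.79 and -1.04. HARS2, TARS2 and SARS2 were lower by the adjusted p of limma, with log2 fold changes of -0.42, -0.40 and -0.38. CARS2 was at -0.12 with an adjusted p of 0.038 in limma, a call that was lost without DMSO replicate 1 (-0.10), DMSO replicate 2 (-0.13), THZ531 replicate 2 (-0.11) or THZ531 replicate 3 (-0.10), and also in limma without a trend (adjusted p = 0.0809) or with no minimum for expression (limma, adjusted p = 0.0505). WARS2 and NARS2, for tryptophan and asparagine, had -0.13 and 0.02 and did not pass.

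The increases among mitochondrial enzymes were those of YARS2, VARS2, IARS2 and RARS2. YARS2, the tyrosine enzyme (GSHG0010037, chromosome 12, 32744147 to 32755901, minus strand), had 4234, 3977 and 3564 normalized reads in DMSO and 7137, 7361 and 7207 in THZ531. Every treated library was above every control, with a log2 fold change of 0.89, an SE of 0.05 and an adjusted p of 5.6e-10 in limma. It stayed above 0 with RPL34, at 0.39. A stretch of 1504 bp, 12.8% of the YARS2 span, is shared with DNM1L, a gene of mitochondrial fission with a log2 fold change of 0.74. VARS2, the valine enzyme (GSHG0047493, chromosome 6, 30914205 to 30926459, plus strand), had 887.6, 794.3 and 742.8 normalized reads in DMSO and 1280, 1236 and 1276 in THZ531. The groups were separate, with a log2 fold change of 0.65 and an SE of 0.07 (limma, adjusted p = 9.7e-07), and 0.41 and 0.16 with the same total and RPL34. All of VARS2 lies in the span of the TUBB locus of the annotation, whose mean was 91225 normalized reads in DMSO and whose log2 fold change was 0.38. The part of shared reads in either increase was not tested. IARS2, for isoleucine, had 9301, 8749 and 8952 normalized reads in DMSO and 12548, 12629 and 12287 in THZ531, a log2 fold change of 0.47 (SE 0.04) that was -0.02 with RPL34. RARS2, for arginine, was higher by 0.20 as deposited and was -0.04 and -0.29 with the same total and RPL34.

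Synthetases fall into a pair of unrelated fold classes, class I with a Rossmann fold and class II with an antiparallel sheet. Of 16 class I genes, 7 were higher and 4 were lower at the adjusted p of limma, and of 17 tested class II genes, 3 were higher and 11 were lower, against 34.6% and 34.1% of all loci. These counts moved with the scaling, as those of all loci did. With the same total 4 were higher and 9 lower in class I, and 1 and 13 in class II. Of the 17568 loci, 3852 were then higher and 8196 lower. With RPL34 class I had 1 and 12 and class II 0 and 16, against 1691 and 10232 of all loci. EPRS1, which carries a domain of each class, was left out. The median log2 fold changes were 0.03 and -0.28, and with RPL34 they were -0.46 and -0.77. The class II genes hold FARSA, AARS2 and PARS2.

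To compare levels between genes, normalized reads were divided by the length in kb of the MANE mRNA, the reference transcript of each gene. In DMSO the cytosolic enzymes had a median of 3109 normalized reads per kb, from 759.9 for AARS1, the lowest after FARSB at 0 was set aside, to 9584 for TARS1. The mitochondrial enzymes had a median of 492, from 139.9 for FARS2 to 2550 for IARS2. The orders overlapped, since YARS2 at 1854 ± 160 (SD, n = 3) and IARS2 at 2550 ± 79.1 stood above cytosolic genes such as CARS1 at 1242 ± 9.36. KARS1 and RARS1, next to each other in that order at 7872 ± 134 and 7879 ± 217 per kb, did not differ beyond their spread. In THZ531 the medians were 3024 and 421.8 per kb, and AARS2 and PARS2, at 60.5 and 63.6, were the lowest of the tested genes. Across the 34 genes, the log2 fold change had a Pearson r of 0.43 and a Spearman rho of 0.43 with log10 of the DMSO level per kb, and both share the DMSO libraries. Within the 18 cytosolic genes r was 0.05 and rho 0.10, and within the 16 mitochondrial genes r was 0.47 and rho 0.44, so the pooled value also holds the difference between the sets. It had an r of 0.15 and a rho of 0.08 with log10 of gene length, beside an r of -0.10 over 15278 loci with a symbol.

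**Figure D2:**
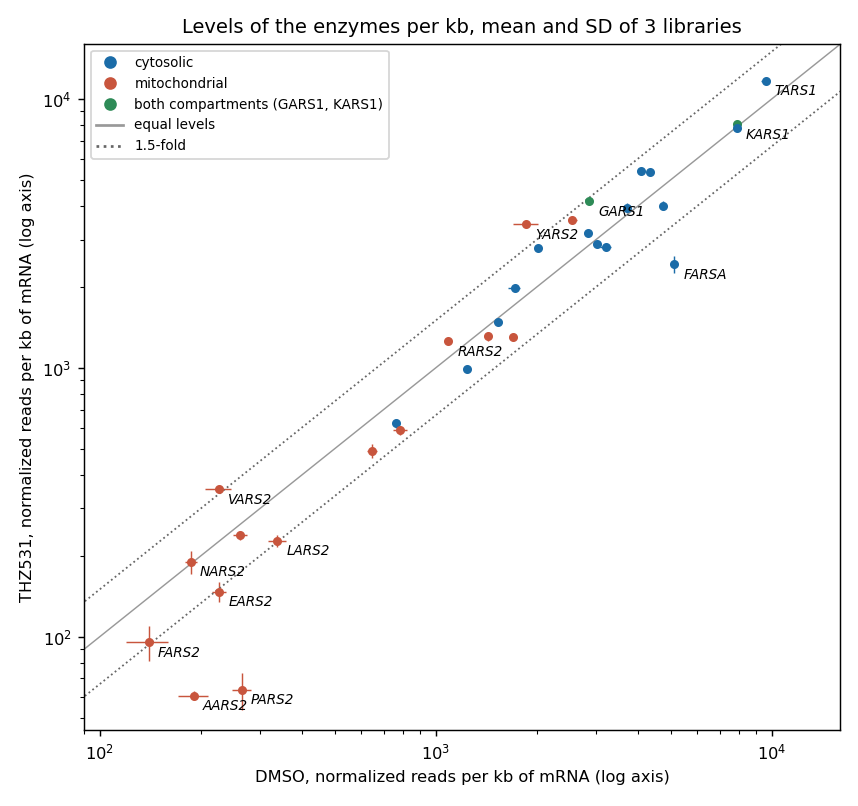
Mean normalized reads per kb of mRNA in DMSO (horizontal, log axis) and THZ531 (vertical, log axis) of 32 of the 34 tested genes, with the SD of 3 libraries as bars, the line of equal levels and dotted lines at a fold change of 1.5. Most cytosolic genes lie near the line at high levels, while PARS2, AARS2 and EARS2 lie under the lower dotted line at low levels and FARSA under it at a high one.

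Summed over genes, the RNA of the enzymes was dominated by the cytosolic set. The cytosolic sum was 180263, 179648 and 180056 normalized reads in DMSO and 194685, 193868 and 195263 in THZ531. The mitochondrial sum was 35602, 34285 and 33715 in DMSO and 37709, 37492 and 37500 in THZ531. Both sums were higher in every treated library, while the share of all normalized reads that the enzymes made up was lower, at 0.390%, 0.383% and 0.377% in DMSO and 0.348%, 0.351% and 0.353% in THZ531. The ratio of the sums was 5.06, 5.24 and 5.34 in DMSO and 5.16, 5.17 and 5.21 in THZ531, so the groups overlapped in it.

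In a ratio of the cytosolic to the mitochondrial gene of an amino acid, taken within a library, the scaling cancels but for the 1 added to each value. It was formed for 15 pairs, with EPRS1 set against both EARS2 and PARS2. FARSA and FARS2, for phenylalanine, were not among them, although both had reads in every library. Their log2 fold changes were -1.08 and -0.55, so this pair is missing from the counts below. The THZ531 libraries were all above the DMSO libraries in 9 pairs, all below in 5 pairs, for cysteine, isoleucine, arginine, valine and tyrosine, and overlapped in 1, for tryptophan. Among single loci, the groups did not overlap in 71.7%. The share over ratios of other genes was not computed, so these counts are not read as particular to the pairs. The median change of the log2 ratio was 0.19. With 3 libraries against 3, the smallest p of a two-sided exact permutation test is 0.1, which 14 pairs reached, and the p adjusted over the 15 pairs was between 0.107 and 0.2, so none could pass 0.05.

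The ratio of EPRS1 to PARS2 changed most. It was 15.1, 15.2 and 16.8 in DMSO and 110.8, 80.6 and 83.6 in THZ531, a difference of 2.53 in the log2 ratio. For AARS1 and AARS2 the ratio was 2.92, 2.55 and 3.15 in DMSO and 8.002, 7.15 and 6.90 in THZ531. PARS2 and AARS2 are the members with the largest decreases, while EPRS1 was higher as deposited and AARS1 lower. EPRS1 to EARS2 went from 8.60, 8.56 and 7.78 to 16.8, 19.6 and 17.02, and TARS1 to TARS2 from 13.8, 14.3 and 15.5 to 24.1, 24.2 and 21.8. The tyrosine pair moved the other way, with a YARS1 to YARS2 ratio of 2.13, 2.31 and 2.54 in DMSO and 1.32, 1.27 and 1.40 in THZ531. These 5 were the pairs whose ratio changed by at least 1.5-fold, 4 upward and 1 downward.

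**Figure D3:**
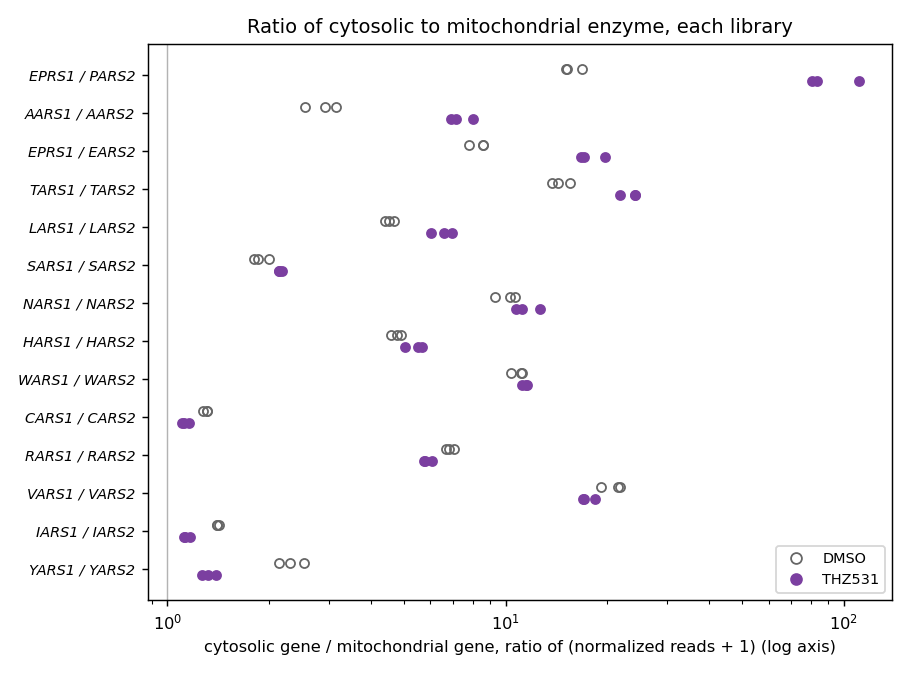
Ratio of the cytosolic to the mitochondrial enzyme gene (normalized reads + 1, horizontal log axis) of 14 of the 15 pairs, with 1 point for each DMSO library (open) and each THZ531 library (filled). The log2 ratio of the proline, alanine, glutamate and threonine pairs shifts by 2.53, 1.36, 1.10 and 0.69, and that of the tyrosine pair by -0.81.

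The scaling decided the direction of many small changes. With the same total, 7 genes with a positive log2 fold change as deposited turned negative, and with RPL34 12 did, among them IARS2 and EPRS1. The medians of the mitochondrial and cytosolic genes were -0.33 and 0.05 as deposited, -0.35 and 0.02 with the upper quartile, -0.57 and -0.20 with the same total and -0.82 and -0.45 with RPL34, and since a scaling moves all genes alike, the gap between them is fixed.

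**Figure D4:**
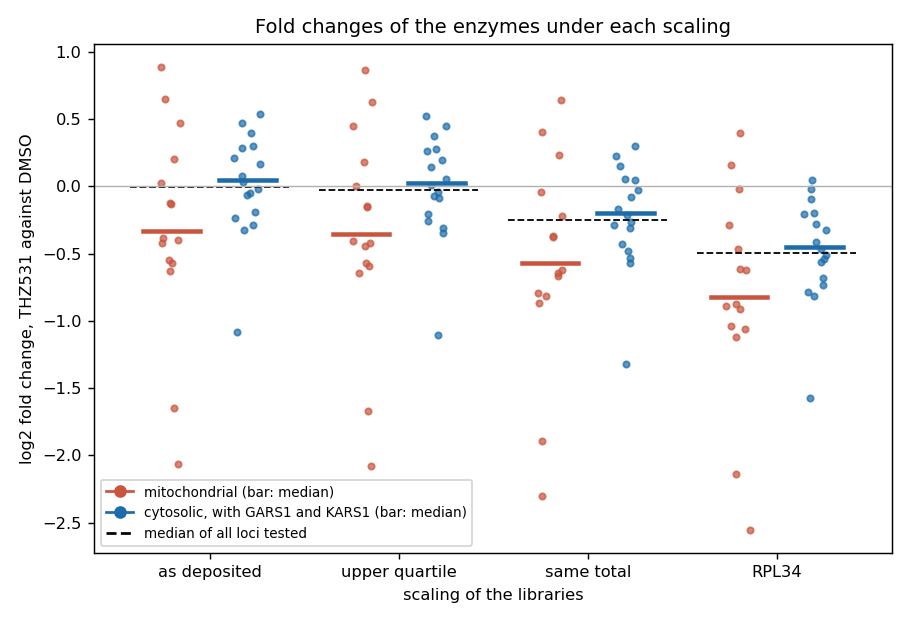
Log2 fold change of 32 of the 34 tested genes under the 4 scalings of the libraries, for the cytosolic and the mitochondrial enzymes, with the median of each set (over all 34 genes) as a bar and the median of all loci tested as a dashed line. Each scaling shifts both sets and all loci together, by -0.02 with the upper quartile, -0.24 with the same total and -0.49 with RPL34.

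Whether the counting used the strand of the reads is not given in the sources used here, so reads over shared stretches could not be assigned. Of the 35 genes, 22 touch another locus of the table and 15 touch a tested locus with a name. SARS2 shares 349 bp with MRPS12, a mitochondrial ribosomal protein gene whose log2 fold change was -0.33. All of AARS1 lies in the annotated span of EXOSC6, an exosome subunit gene at -0.17. CARS2 shares 981 bp with ING1, which rose by 1.30, and 4507 bp with an unnamed locus that rose by 1.49. YARS1 shares 712 bp with S100PBP, WARS2 shares 277 bp with WARS2-AS1, and HARS1 shares 211 bp with WDR55, and these neighbours had log2 fold changes of -1.55, -1.63 and -0.68. Without the 15 genes, 0 rose and 4 fell, against 15.7% and 23.9% of all loci, from which no overlapping loci were removed. The medians were then 0.10 for the cytosolic and -0.55 for the mitochondrial enzymes. This count was added after the values were seen.

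Loci without a symbol lie inside the span of the enzyme genes in 7 cases, all in introns of the MANE transcript, and 4 of them were at 0 in all libraries. Of the 2 that were tested, 1 was called: the locus in intron 1 of YARS1 (chromosome 1, 32814409 to 32816681) had 7.94, 5.57 and 3.19 normalized reads in DMSO and 30.2, 29.6 and 37.5 in THZ531. It starts 507 nt and ends 2779 nt from the 5' splice site of an intron of 6130 nt. All treated libraries were above the controls, but every DMSO value was under the minimum of 10, so the locus was tested only through the libraries in which it was high and its fold change is not read as a test. The locus fell under the minimum for testing without any 1 of the THZ531 libraries. YARS1 itself was at 0.08.

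HARS1 and HARS2, the cytosolic and mitochondrial histidine enzymes, start back to back and share 5423 bp of annotated span, 23.6% of HARS1 and 68.8% of HARS2. HARS1 had 9264, 9342 and 9053 normalized reads in DMSO and 7620, 7672 and 8157 in THZ531, and HARS2 had 1936, 2032 and 1846 in DMSO and 1506, 1396 and 1439 in THZ531. Both were lower in every treated library, by log2 fold changes of -0.24 and -0.42. The bases between the starts (RefSeq, GRCh38.p14, chr5:140691371-140691454, plus strand, HARS1 start at 140691370 on the minus strand and HARS2 start at 140691455 on the plus strand) are shown because 1 stretch of 84 bases separates the pair. Capitals mark CCGGAA, the core that ETS family factors bind, or its reverse complement TTCCGG.
HARS1 to HARS2: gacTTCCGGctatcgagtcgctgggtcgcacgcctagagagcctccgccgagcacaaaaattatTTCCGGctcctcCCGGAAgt
The core occurs 3 times here. Over windows from 250 bases before to 50 after the start, it was found on either strand in 18 of 28 enzyme genes with a promoter sequence (11 cytosolic and 7 mitochondrial) and for 20.1% of all symbols with such windows. A match is a run of letters and not a measured site.

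Promoter windows were found for 28 of the 35 genes, but not for AARS2, LARS1, VARS1, VARS2 and YARS1, among others. Several synthetase genes are known targets of ATF4, the transcription factor of the amino acid response, which binds C/EBP-ATF response elements. The core TGATGNAA of that element, on either strand, was found for 7 of the 28 genes (25.0%) and for 4.457% of the 27305 symbols with a promoter window, each gene with all its windows. Of the 7, 6 were among 15 cytosolic and 1 among 13 mitochondrial genes. The matches are printed with their flanks, with the core in capitals and in the orientation in which it reads TGATGNAA.
AARS1 (chr16:70289675-70289704, plus strand): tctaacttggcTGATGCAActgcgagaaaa
CARS1 (chr11:3057407-3057436, plus strand): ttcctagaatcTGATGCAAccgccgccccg
GARS1 (chr7:30594834-30594863, minus strand): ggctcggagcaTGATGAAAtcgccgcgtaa
IARS1 (chr9:92293692-92293721, plus strand): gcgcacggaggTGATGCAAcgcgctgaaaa
NARS1 (chr18:57621804-57621833, minus strand): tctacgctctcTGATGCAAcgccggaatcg
TARS1 (chr5:33440956-33440985, minus strand): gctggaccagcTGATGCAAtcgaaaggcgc
YARS2 (chr12:32756076-32756105, minus strand): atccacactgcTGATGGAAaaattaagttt
The search fixed every letter of the core but the N, which is C in AARS1, CARS1, IARS1, NARS1 and TARS1. The log2 fold changes of the 7 genes ran from -0.32 for CARS1 to 0.89 for YARS2, with a median of 0.21, and at the adjusted p of limma 5 were higher and 2, AARS1 and CARS1, were lower, against 34.6% and 34.1% of all loci. With RPL34, GARS1 and YARS2 had positive values, at 0.05 and 0.39, but GARS1 did not pass there (limma, adjusted p = 0.628).

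The genes of the amino acid response itself moved in both directions. Of 17 on a list written by hand, 4 rose and 3 fell by at least 1.5-fold, and at the adjusted p of limma 10 were higher and 6 were lower, against 15.7% and 23.9% of all loci by the fold and 34.6% and 34.1% by the adjusted p. ATF4 had 23490, 24477 and 25223 normalized reads in DMSO and 19659, 18961 and 20488 in THZ531, lower in every treated library with a log2 fold change of -0.31 (SE 0.04). EIF2AK4, the kinase that senses uncharged tRNA, had 4597, 4287 and 4175 in DMSO and 1830, 1863 and 1755 in THZ531, with a log2 fold change of -1.26 (SE 0.05). DDIT3, a transcription factor of the stress response, fell by 1.51 on the log2 scale and CHAC1, a glutathione-degrading enzyme, fell by 0.85. The 4 that rose were CEBPB (0.73), SESN2 (0.90), DDIT4 (0.82) and SLC7A11, the cystine transporter (1.09 from a DMSO mean of only 47.6 normalized reads), and all 4 stayed above 0 with RPL34. The list had 2 genes up and 5 down with the same total, against 9.38% and 32% of all loci. There CEBPB (0.49) and DDIT4 (0.57) lost the call. With RPL34 it had 1 up and 7 down, against 6.14% and 42.8%, and CEBPB (0.24), DDIT4 (0.32) and SESN2 (0.41) lost the call. ASNS, the asparagine synthetase, was higher by 0.40 as deposited and was -0.10 with RPL34. The median of the list, 0.22, became -0.02 for equal totals and -0.27 for RPL34.

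The other genes of aminoacylation were taken from lists written by hand. Of the 3 scaffold proteins of the multisynthetase complex, AIMP1, EEF1E1 and AIMP2 had log2 fold changes of 0.24, 0.27 and -0.54. All 3 passed the adjusted p of limma and 0 changed by 1.5-fold, against 68.6% and 39.5% of all loci in either direction. AIMP2 had 2273, 2191 and 2244 normalized reads in DMSO and 1515, 1573 and 1523 in THZ531, so the groups were separate. AIMP1 was at -0.01 with the same total, and both AIMP1 and EEF1E1 were below 0 with RPL34, at -0.26 and -0.23. AIMP2 passed the 1.5-fold threshold with these scalings, at -0.78 and -1.03. A second list held 10 genes, most of them partners such as editing enzymes, the selenocysteine pathway and the enzymes that finish mitochondrial charged tRNAs. It also held TARS3, a further threonine enzyme gene whose symbol the rule did not match. TARS3 had a log2 fold change of -0.27 and did not pass the adjusted p. Of these, 0 rose and 2 fell by at least 1.5-fold, against 15.7% and 23.9% of all loci. At the adjusted p 3 were lower and 7 did not pass, against 34.1% of all loci lower. The median of the 10 was -0.19. By 1.5-fold, 4 of the 10 fell with the same total and 6 with RPL34, against 32% and 42.8% of all loci. With each of these scalings 8 were lower at the adjusted p, against 8196 and 10232 of the 17568 loci. The medians of the 10 were then -0.44 and -0.69.

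Both regulated partners act in mitochondria. MTFMT, which formylates the initiator methionyl-tRNA there, had 738.3, 772.9 and 803.5 normalized reads in DMSO and 364, 316 and 364.1 in THZ531. GATC, a subunit of the amidotransferase that makes glutaminyl-tRNA from glutamyl-tRNA, the product of EARS2, had 1729, 1501 and 1511 in DMSO and 861.5, 857.1 and 876 in THZ531. Neither gene had overlapping groups, and the log2 fold changes were -1.15 (SE 0.09) and -0.87 (SE 0.07), and limma gave them an adjusted p of 1.7e-08 and 1.3e-08. The other subunits of that enzyme, QRSL1 and GATB, had log2 fold changes of -0.40 and -0.12, and GATB did not pass.

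The 7 genes of the elongation factors that carry charged tRNA to the ribosome, and of their nucleotide exchange factors, were all higher at the adjusted p of limma, against 34.6% of all loci, and 0 of 7 were regulated, against 39.5%, with a median of 0.42 and a range from 0.16 for TUFM to 0.47 for EEF1A2. EEF1A1, the most abundant, had 176646, 167540 and 160048 normalized reads in DMSO and 227731, 223871 and 224610 in THZ531. Their direction depended on the scaling, with a median of 0.18 with the same total and -0.07 with RPL34.

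**Figure D5:**
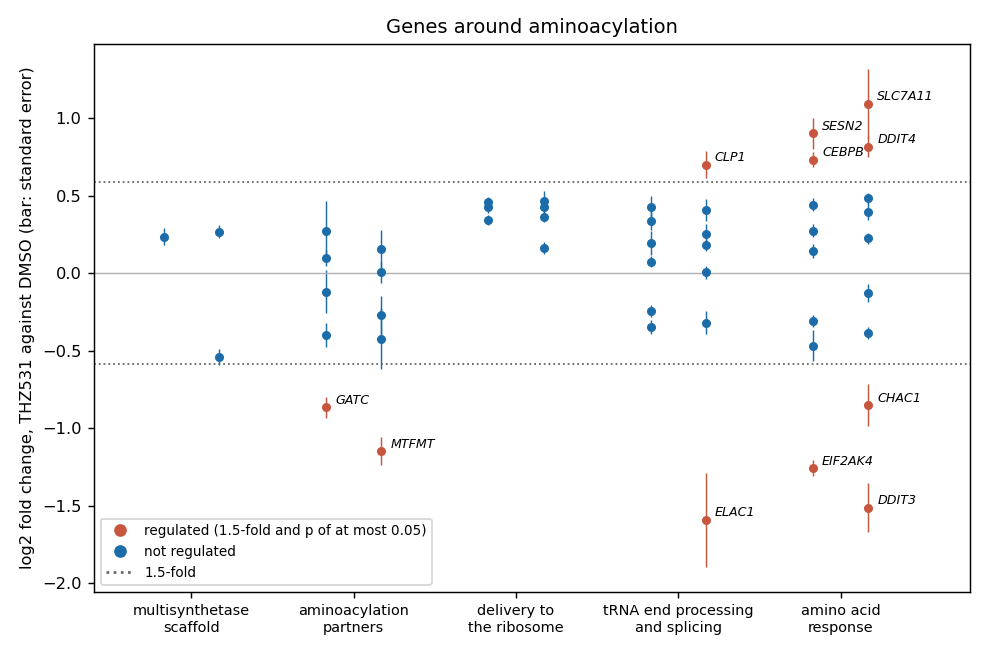
Log2 fold change of THZ531 against DMSO, as deposited, for the genes of 5 lists around aminoacylation, 1 gene left out (1 point for each gene, spread sideways for legibility; bars, standard error; dotted lines, a fold change of 1.5; red, regulated). The 7 genes of delivery to the ribosome lie between 0.16 and 0.47, while the amino acid response runs from -1.51 for DDIT3 to 1.09 for SLC7A11.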

How the data were processed

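Total RNA of OVCAR3 cells (3 DMSO and 3 THZ531 libraries) was sequenced as polyA plus libraries. Alignment by the authors used STAR (version 2.7.5a per the labels) and hg38, gene counting used featureCounts with FAST DB gene models, and they deposited 1 table of values normalized with DESeq2. The deposited values are a signal: gene counts over each library's size factor, with no correction for length. All values (100%) came out as whole reads once divided by the library's step (tolerance 0.01), so the counts could be recovered, with 53054048 to 70986130 reads on genes. Counting error was thus small for all members but the weakest, and p-values measure the spread between these libraries.

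The 17568 loci that reached 10 in 3 or more libraries were tested with limma 3.58.1 (trended variance, R 4.3.3, no covariates) on log2(value + 1), a scale that understates the change of low genes. Calls needed a change of 1.5-fold and p up to 0.05, as in the study, and p-values were adjusted by Benjamini-Hochberg over all loci. On the recovered counts edgeR 4.0.16 called 2582 loci up and 4281 down, and DESeq2 1.42.0 called 2680 and 4108. The script was tested on simulated data. Ratios of paired genes were compared by exact permutation tests (scipy 1.17.1, numpy 2.4.6). Gene models and MANE transcripts were from GENCODE 44, and promoter sequences from RefSeq.

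Alternative settings were pseudocounts of 0.1 and 10, no minimum or one of 50, other scalings, edgeR and DESeq2, untrended limma, a replicate block, calls by adjusted p or at 2-fold, and leaving out each library. Any member could be named. Library values were given for called members, for the 4 highest and 4 lowest changes and for members under the minimum, and, chosen after their values were seen, for a few more. Values of 3 genes are not reported here singly, though counts and medians include them. The members and lists were chosen with earlier results of these data known. Replicate libraries differed by more than sampling noise (chi-square per degree of freedom from 4.59 to 23.7).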

Additional observations from a re-analysis of the deposited data

How the results depend on the processing

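The calls of 2 genes up and 4 down were the same with DESeq2, both pseudocounts, both minimums, limma without a trend and the adjusted p, and edgeR gave 2 up and 5 down. At a fold change of 2, 0 rose and 3 fell. The share of all loci at this fold was not computed, so the count is not read further. The scaling moved most values. With the same total, 1 gene rose and 9 fell, with medians of -0.20 for the cytosolic and -0.57 for the mitochondrial enzymes. With RPL34, 0 rose and 16 fell, the medians were -0.45 and -0.82, and 2 unnamed loci were called. The cytosolic median was 0.0242 with the upper quartile and 0.0233 in edgeR. With a minimum of 50, 0 unnamed loci were called. The cause of these moves is the shift of the libraries for the scalings and the smaller set tested for the minimum; for edgeR it was not tested. Without the genes that touch another tested named gene, chosen after seeing the data, 0 rose and 4 fell. The shares of all loci, none left out, were 15.7% and 23.9%. The cytosolic and mitochondrial medians were then 0.10 and -0.55.

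Signs turned with 2 of the scalings and, for NARS2 alone, without THZ531 replicate 1 (-0.0045) or replicate 3 (-0.0302). With the same total the log2 fold change was -0.0301 for NARS1, -0.0405 for RARS2, -0.078 for IARS1, -0.17 for YARS1, -0.21 for KARS1 and -0.22 for NARS2. With RPL34 it was -0.0204 for IARS2, -0.0225 for EPRS1, -0.10 for VARS1, -0.20 for QARS1, -0.21 for TARS1, -0.28 for NARS1, -0.29 for RARS2, -0.33 for IARS1, -0.42 for YARS1, -0.46 for KARS1 and -0.47 for NARS2.

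With each library left out in turn, 2 genes rose each time and 3 to 5 fell. With all libraries, 15.7% and 23.9% of all loci did. The cytosolic median ran from 0.0294 to 0.0554 and the mitochondrial from -0.35 to -0.30. The median change of the paired log2 ratios ran from 0.16 to 0.23 and the called unnamed loci from 0 to 1. The locus in YARS1 was not tested without any 1 of the THZ531 libraries, and the call without THZ531 replicate 1 was of another locus. Whether the replicate numbers pair the libraries is not stated, and they were not treated as pairs in the main fit. The deviations of same-numbered libraries correlated at 0.0017, 0.0186 and -0.0393. Values near 0 show no marked shared deviation but cannot tell how the libraries were prepared. With the replicate number as a block, 2 genes rose and 4 fell.

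The called intron locus had at most 37.5 normalized reads in any library, so its value rests on few reads.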

Other observations

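The enzymes that cut, splice and finish tRNAs before they are charged were examined as a list of 14 genes written by hand. As deposited, 1 rose and 2 fell by at least 1.5-fold, and at the adjusted p of limma 7 were higher and 5 were lower, against 15.7% and 23.9% of all loci by the fold and 34.6% and 34.1% by the adjusted p, with a median log2 fold change of 0.13 (-0.12 with the same total and -0.37 with RPL34). With the same total 0 rose and 3 fell, against 9.38% and 32% of all loci. At the adjusted p 3 were then higher and 7 lower, against 3852 and 8196 of the 17568 loci. With RPL34 0 rose and 5 fell, against 6.14% and 42.8%. At the adjusted p 0 were then higher and 10 lower, against 1691 and 10232 loci. CLP1, the RNA kinase bound to the tRNA splicing endonuclease, had 734.4, 633.8 and 585.7 normalized reads in DMSO and 1043, 1121 and 1001 in THZ531, a log2 fold change of 0.70 (SE 0.09) that was under the 1.5-fold threshold with the same total (0.46) and with RPL34 (0.21). Of the subunits of that endonuclease, TSEN15 and TSEN54 had log2 fold changes of 0.34 and 0.19, and TSEN34 had 0.00 and did not pass. ELAC1, which trims the 3' end of tRNAs, had 65.9, 59.4 and 87.8 normalized reads in DMSO and 21.4, 20.5 and 26.2 in THZ531, a log2 fold change of -1.59 (SE 0.30). ELAC2 and the mitochondrial RNase P genes TRMT10C and PRORP were lower at the adjusted p, with log2 fold changes of -0.25, -0.35 and -0.32, and HSD17B10, the remaining subunit of that enzyme, was higher by 0.18 as deposited and was -0.31 with RPL34.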
